A study of Mus musculus with 5 samples.

Results

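Sub-cluster 2 of the small intestine (SI 2) was 1 of the 7 sub-clusters into which single-cell RNA sequencing divided group 2 innate lymphoid cells (ILC2s) of the SI. Its members here are the genes that the deposited table lists in a comparison with SI 2. Genes in a list headed by SI 2 were taken as higher in it, and genes in a list headed by another sub-cluster and set against SI 2 were taken as lower in it. This gave 234 genes of the 338 listed anywhere for the SI and of the 688 listed in the whole series. The cells came from male wild-type C57BL/6 mice aged 6 weeks and were sorted as lineage-negative CD45+ KLRG1+ cells with low or intermediate Thy1 after 1.5 h of collagenase digestion. ILC2s of large intestine (LI), lung, pancreas and bone marrow (BM) of such mice were sorted instead as lineage-negative ST2+ CD25+ cells, after digestion for 1.5 h (LI), 1 h (lung) or 0.5 h (pancreas), whereas BM was flushed from the bone. Each tissue had 1 library from 10 pooled mice, so no sub-cluster had a replicate. The LI, lung and SI libraries were made in 1 batch, and the BM and pancreas libraries in another.

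The lists hold gene symbols alone. No level, fold change, p-value or cell number stands beside them, and the sources used here do not give the threshold for listing a gene. The depth of the SI library and the number of SI 2 cells are therefore unknown. A gene that is not listed may have differed by less than the threshold, or may not have been detected. Each gene was graded by how many of the 6 comparisons with another SI sub-cluster (1 versus 1) listed it, and these comparisons share the cells of SI 2 and are not independent of each other.

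ILC2s are tissue-resident lymphocytes without antigen receptors. They respond to alarmins and to neuropeptides with type 2 cytokines such as IL-5 and IL-13, and are known in the gut for roles in defence against worms and in repair of the barrier. Calca, the first gene of the SI 2 signature, encodes both the hormone calcitonin and calcitonin gene-related peptide (CGRP) by use of alternative exons. CGRP signals through a calcitonin receptor-like receptor paired with RAMP1 and raises cyclic AMP. Crem, the third gene, encodes a family of cyclic AMP responsive transcription factors, some forms of which repress other targets of the pathway. NF-κB, by contrast, is the transcription factor family that couples alarmin receptors to cytokine genes, and it induces its own inhibitors, among them Nfkbia.

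The labelled cell type could be checked only in part, because a gene at a like level in every sub-cluster is in no list. Of 7 ILC2 markers (Gata3, Rora, Il1rl1, Il7r, Klrg1, Il17rb and Icos), only Rora and Icos were listed for the SI. Icos, a costimulatory receptor, was listed higher in SI 2 than in SI 1 and SI 5, and Rora, a transcription factor that ILC2s need for their development, than in SI 1. Of 129 genes that mark 12 other cell types, from T, B, NK and myeloid cells to epithelium, enteroendocrine cells, neurons and stroma, none was listed higher in SI 2. The only one listed for the SI at all was Il17a, which was lower in SI 2 than in SI 4. The authors had already removed clusters with markers of ILC3s, T, B, NK, endothelial or myeloid cells or ILC1s, and the sort was lineage-negative. For these types the absence of higher listings was largely fixed in advance and is no check of the label.

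In its 12 lists of 1 versus 1 comparisons, SI 2 had 108 genes listed higher than in at least 1 other sub-cluster (32% of the 338 SI genes) and 131 listed lower (38.8%). These shares are the background for every group of genes below, and they hold only genes that differed somewhere in the SI. The comparisons were very uneven. Against SI 1, 91 genes were higher in SI 2 and 36 lower. Without the comparison with SI 1, 63 genes were left as higher in SI 2. Against SI 6 the balance was the other way, with 24 higher and 77 lower. Against SI 0 only 6 genes were higher in SI 2 and 49 lower. Between SI 2 and SI 3 the tables listed 3 genes higher in SI 2 and 18 lower, and this total of 21 was the smallest of the 21 pairs of SI sub-clusters. The total of 127 between SI 2 and SI 1 was the largest. Numbers of cells per sub-cluster, which bear on how many genes pass a threshold, are unknown, and their part was not tested.

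**Figure D1:**
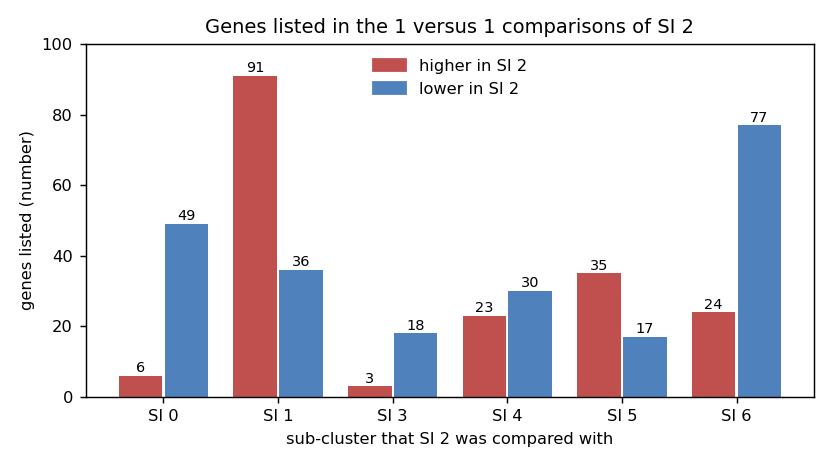
Number of genes (vertical axis) listed higher in SI 2 (red) and lower in SI 2 (blue) in each comparison with another SI sub-cluster (horizontal axis). The bars run from 3 genes higher than in SI 3 to 91 higher than in SI 1, and from 17 lower than in SI 5 to 77 lower than in SI 6.

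Against all other SI cells together, 9 genes were listed higher in SI 2 (2.66% of the 338 SI genes), in the order Calca, Tgm2, Crem, Cstb, Ifngr1, Usmg5, Trf, Sub1 and Eprs. The sources used here do not say what the order of a list stands for. No matching list of lower genes is used here, since the pooled comparisons name higher genes only. Every one of the 9 was also in a 1 versus 1 list. Both kinds of list rest on the same cells, so this overlap describes the pooled list and is no separate evidence for it. All 9 were listed higher than in SI 1 and than in SI 5, 5 than in SI 0, 5 than in SI 6, 2 than in SI 4 and none than in SI 3.

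Tgm2, which encodes transglutaminase 2, an enzyme that crosslinks proteins and also binds GTP, was listed higher in the most comparisons. It was listed higher in SI 2 than in SI 0, SI 1, SI 4, SI 5 and SI 6. The gene lies on the minus strand of chromosome 2 (158116402 to 158146436, mm10). SI 3 was the exception, and SI 3 itself was listed above 2 other sub-clusters for Tgm2. Calca was listed higher in SI 2 than in SI 0, SI 1, SI 5 and SI 6, and not in the comparisons with SI 3 and SI 4. SI 3 was listed above 3 other sub-clusters for Calca and SI 4 above 2, so the gene was graded over the SI rather than confined to SI 2. Crem was listed higher in SI 2 than in SI 1, SI 5 and SI 6. For Crem the clearest contrast lay with SI 1, which was below each of the other 6 SI sub-clusters. None of these 3 genes was listed lower in SI 2 in any comparison.

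Calca lies on the minus strand of chromosome 7 (114631478 to 114636357, mm10), where GENCODE annotates 7 transcripts. Transcript 201 has 5 exons and ends with the exon at 114631478 to 114631905, whereas transcript 202 has 4 exons and ends in a different last exon, at 114633293 to 114633785. The libraries read the 3′ ends of transcripts, but the table names the gene alone, so the calcitonin and CGRP forms cannot be told apart in it. The promoter of Calca is shown because this gene heads the SI 2 list. It is the RefSeq sequence from 250 bases before to 50 bases after the start of the gene, chr7:114636308-114636607, minus strand, GRCm38.p6, with TGACG, the half-site of the cyclic AMP response element (CRE), in capitals.
Calca: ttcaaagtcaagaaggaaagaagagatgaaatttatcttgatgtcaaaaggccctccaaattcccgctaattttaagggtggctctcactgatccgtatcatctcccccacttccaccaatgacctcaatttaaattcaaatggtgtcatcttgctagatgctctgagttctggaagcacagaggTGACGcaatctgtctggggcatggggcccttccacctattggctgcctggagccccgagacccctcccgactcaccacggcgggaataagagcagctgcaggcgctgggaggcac
The half-site stands 65 to 61 bases before the start. Searched on both strands, it was found in the promoters of 6228 of 27025 genes of the RefSeq table (23%), so a match alone says little. The complete element TGACGTCA, which contains the half-site, was in 549 (2.03%) and not in this window of Calca.

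The other genes of the pooled list had varied roles. Ifngr1, the ligand-binding chain of the interferon-γ receptor, was listed higher in SI 2 than in SI 0, SI 1, SI 5 and SI 6. Its partner chain Ifngr2 was higher than in SI 1 and SI 6. Cstb, an inhibitor of cathepsin proteases, and Trf, the iron carrier transferrin, were both higher than in SI 0, SI 1 and SI 5. Sub1, a transcriptional coactivator, followed Crem (SI 1, SI 5 and SI 6), and Eprs, a transfer RNA synthetase, was higher than in SI 1, SI 4 and SI 5. Usmg5, a small protein of the mitochondrial ATP synthase that RefSeq now names Atp5md, was listed in the fewest comparisons, SI 1 and SI 5. Cstb was the only one of the 9 that another SI sub-cluster also listed against all, SI 6 at place 34. SI 6 was above 5 sub-clusters for Cstb, and SI 2 above 3.

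Some genes were graded above members of the pooled list without being in it. No gene was listed higher than in all 6 other sub-clusters, 1 gene (Tgm2) was higher than in 5, and 5 genes were higher than in 4. Besides Calca and Ifngr1, these 5 were Hs3st1, Tpm4 and Basp1. Hs3st1 encodes a heparan sulfate sulfotransferase, Tpm4 a tropomyosin of the actin cytoskeleton and Basp1 a membrane-bound signalling protein. All 3 were listed higher in SI 2 than in SI 1, SI 4, SI 5 and SI 6. For the same genes SI 3 was listed above 4 (Hs3st1), 3 (Tpm4) and 4 (Basp1) sub-clusters, and it was not separated from SI 2.

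A further 14 genes were higher than in 3 of the 6 sub-clusters. Among them Ramp3, which pairs with receptors of the calcitonin family, Cd200r1, an inhibitory receptor, and Dgat1, an enzyme of triglyceride synthesis, had the pattern of Crem (SI 1, SI 5 and SI 6). Cxcr6, a chemokine receptor, Dusp5, a phosphatase that turns off ERK, and the transcription factor Klf4 were higher than in SI 1, SI 4 and SI 6. The splicing factor gene Isy1 was higher than in SI 1, SI 4 and SI 5, as was Cdk11b, a kinase gene that was lower than in SI 6. Gzma, encoding the protease granzyme A, was alone in being higher than in SI 0, SI 1 and SI 3, and it was in no list of another tissue.

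**Figure D2:**
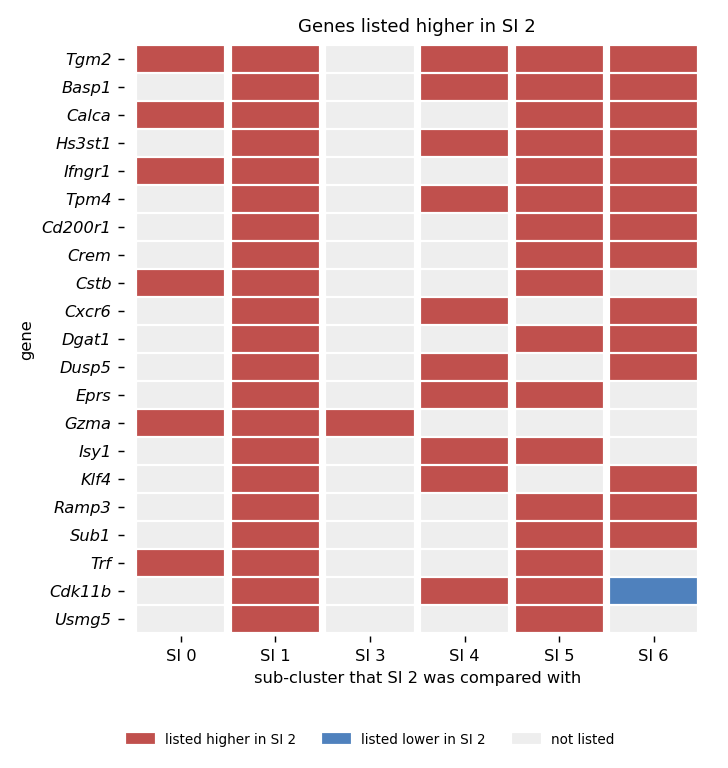
The 21 genes listed higher in SI 2 against all or against at least 3 of the 6 other SI sub-clusters (rows), with the sub-cluster compared in columns; red marks a gene listed higher in SI 2, blue lower and grey not listed. The column of SI 1 is filled for every gene, and the column of SI 3 holds Gzma alone.

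SI 3 was the sub-cluster least separated from SI 2. Only Gzma, Hes1 and Fos were listed higher in SI 2 than in SI 3. Hes1, a repressor downstream of Notch, and Fos, a subunit of the AP-1 factor, were the 2 genes for which SI 3 was below every other SI sub-cluster, SI 2 included. In the other direction 18 genes were lower in SI 2 than in SI 3. These held the type 2 cytokines Il5 and Il13, the growth factor Csf2, the NF-κB genes Nfkbia, Nfkbiz, Gadd45b and Rel, and the chemokines Cxcl10 and Cxcl2. Il5 was lower in SI 2 in this comparison alone. Il13 was lower than in SI 3, SI 4 and SI 6, and Il4 was lower only than in SI 0.

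More genes were lower in SI 2 than in at least 4 sub-clusters (9) than were higher (6). Gadd45b, Nfkbia and Cxcl10 were listed lower than in each of the 6 other sub-clusters (0.888% of the 338 SI genes). Nfkbia (chromosome 12, 55489410 to 55492647, minus strand) encodes IκBα, which holds NF-κB in the cytoplasm. Gadd45b (chromosome 10, 80930073 to 80932204) encodes a stress sensor induced by NF-κB, and Cxcl10 (chromosome 5, 92346638 to 92348889, minus strand) a chemokine ligand of CXCR3 that is induced by interferons. Cxcl10 did not appear in any 1 versus 1 list of the SI that did not involve SI 2. Nfkbia and Gadd45b did appear in such lists. SI 0 was above 4 sub-clusters for Nfkbia and above 5 for Gadd45b. SI 3 and SI 4 were each below 3 sub-clusters for Nfkbia and below 2 for Gadd45b, and both were above SI 2.

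Another 4 genes were listed lower in SI 2 than in 5 of the 6. Nfkbid and Nfkbiz encode nuclear relatives of IκBα. Nfkbid was lower than in every sub-cluster but SI 3, and Nfkbiz than in every one but SI 4. The 3 genes lower throughout thus became 5 without SI 3 and 5 without SI 4. Areg, which encodes the epidermal growth factor receptor ligand amphiregulin, shared the pattern of Nfkbid. Csf2, which encodes GM-CSF, shared that of Nfkbiz, and SI 4, the exception, was itself below 5 sub-clusters for Csf2. Zfp36, whose product speeds the decay of cytokine messenger RNAs, and Jun, a subunit of AP-1, were lower in SI 2 than in SI 0, SI 1, SI 5 and SI 6. Of the 15 genes lower than in 3 sub-clusters, Btg2, Fosb, Ier5 and Ppp1r15a shared SI 0, SI 1 and SI 6, and Hspa1a and Dnajb1, which encode heat shock proteins, shared SI 1, SI 5 and SI 6. Hspa1a has a near-identical neighbour, Hspa1b, and the division of reads between them is uncertain.

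**Figure D3:**
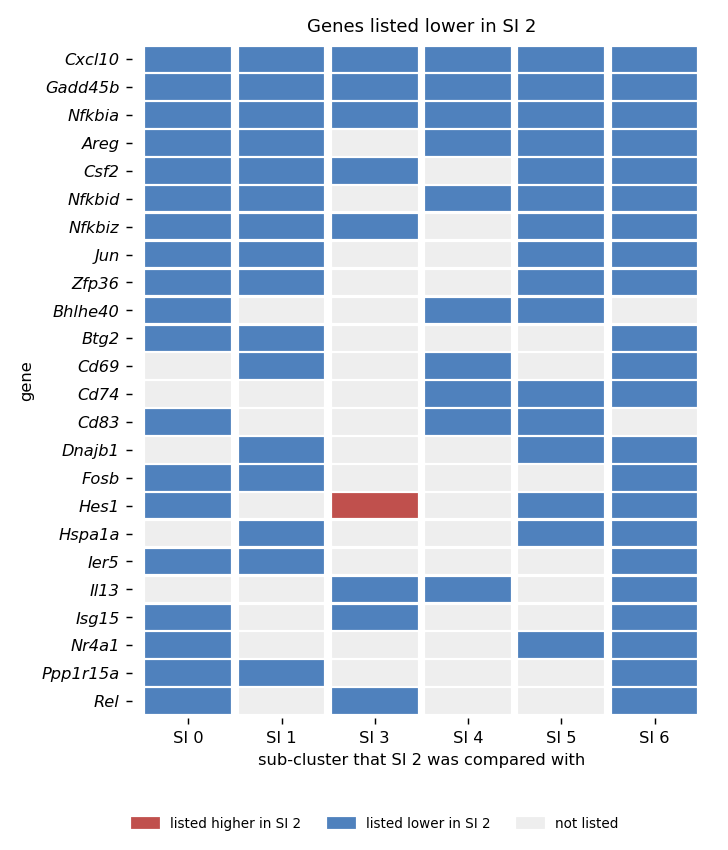
The 24 genes listed lower in SI 2 than in at least 3 of the 6 other SI sub-clusters (rows), with the sub-cluster compared in columns; blue marks a gene listed lower in SI 2, red higher and grey not listed. The first 3 rows are filled across, and Hes1 is the only gene that is lower in some columns and higher in another.

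Promoters of lower genes are shown for Nfkbia and Cxcl10, which were lower throughout, and for Areg, the cyclic AMP responsive gene with the most lower listings. The windows are as for Calca, in GRCm38.p6: chr12:55492598-55492897 (minus), chr5:92348840-92349139 (minus) and chr5:91139349-91139648 (plus). Capitals mark matches to the NF-κB consensus in Nfkbia and Cxcl10 and to the full CRE in Areg.
Nfkbia: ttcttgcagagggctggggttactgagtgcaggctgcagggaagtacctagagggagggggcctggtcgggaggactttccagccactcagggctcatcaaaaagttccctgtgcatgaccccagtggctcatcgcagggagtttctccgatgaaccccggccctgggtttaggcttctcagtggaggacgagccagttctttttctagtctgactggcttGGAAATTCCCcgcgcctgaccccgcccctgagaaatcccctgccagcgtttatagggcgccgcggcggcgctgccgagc
Cxcl10: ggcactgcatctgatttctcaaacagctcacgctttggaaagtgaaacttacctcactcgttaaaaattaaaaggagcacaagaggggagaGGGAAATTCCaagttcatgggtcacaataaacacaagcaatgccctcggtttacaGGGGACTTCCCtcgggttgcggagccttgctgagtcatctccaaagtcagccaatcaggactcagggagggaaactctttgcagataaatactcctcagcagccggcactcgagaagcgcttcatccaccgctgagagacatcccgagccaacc
Areg: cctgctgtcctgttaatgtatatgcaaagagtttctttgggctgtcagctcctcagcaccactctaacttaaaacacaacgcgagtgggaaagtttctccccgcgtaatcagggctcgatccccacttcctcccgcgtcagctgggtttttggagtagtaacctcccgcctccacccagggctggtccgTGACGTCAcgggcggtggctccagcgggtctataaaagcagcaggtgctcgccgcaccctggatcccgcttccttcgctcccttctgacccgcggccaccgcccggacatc
The match in Nfkbia lies 29 to 20 bases before the start. Cxcl10 has 1 match at 159 to 150 bases and overlapping matches from 104 to 94 bases before the start, and the CRE of Areg lies 61 to 54 bases before it. The NF-κB consensus, searched on both strands, was in the promoters of 2581 of the 27025 genes (9.55%). It was in those of 7 of the 18 genes lower than in at least 3 sub-clusters that have a promoter in the table (38.9%), and of 2 of the 14 such higher genes (14.3%), Basp1 and Ramp3. The 7 were Cxcl10, Fosb, Hspa1a, Nfkbia, Nfkbid, Nr4a1 and Rel, and Gadd45b had none in this window. The full CRE was in 4 of the 18 lower genes (22.2%), Areg, Btg2, Nfkbid and Ppp1r15a, and in none of the 14 higher genes. The half-site was in 10 of the 14 higher genes (71.4%) and in 9 of the 18 lower genes (50.0%). Over all 27025 genes the share was 23% for the half-site and 2.03% for the full CRE. For all 3 motifs this background is the whole RefSeq table and not the genes listed for the SI. Whether the motifs are more frequent in either set than in other genes listed for the SI was not tested. These matches are letters in a window and not measured binding sites, and the windows differ in base composition, whose part was not tested.

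Several groups of genes with a common role were listed mostly in 1 direction. For the NF-κB pathway, 10 of 14 genes listed for the SI were lower in SI 2 (71.4%, against 38.8% of all SI genes) and none was higher. Their median number of lower listings was 2, against 0 over all SI genes. Besides those named above, they held Cd83, Birc3, Traf1, Icam1 and Tnfaip3, the last of which encodes the NF-κB inhibitor A20. Against SI 0 and against SI 6, 9 of the genes were lower in SI 2, against SI 5 it was 5, and against SI 1, SI 3 and SI 4 it was 4 each. The group includes Nfkbia and Gadd45b, which were lower throughout, so its presence in every comparison was already fixed by these genes.

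Immediate early genes, which are transcribed within minutes of a stimulus, were lower for 18 of 22 (81.8%) and higher for 3 (13.6%, against 32% of all SI genes). The 3 were Klf4, Fosl2 and Fos, and Fos was in both sets. The lower listings came mainly from SI 0 (12 genes), SI 1 (14) and SI 6 (12), whereas SI 3 gave 1, SI 4 gave 2 and SI 5 gave 4. SI 3 was itself below 4 sub-clusters for Jun, Zfp36, Btg2 and Cd69 and below 5 for Ppp1r15a. For Gadd45b, Fosb and Nr4a1 it was below 2 and for Ier5 below 1, fewer than SI 2. Low listing of this group was therefore not particular to SI 2. Heat shock and protein folding genes were lower for 9 of 12 (75.0%), and these listings came from SI 1 (8 genes), SI 5 (2) and SI 6 (9), with none from SI 0, SI 3 and SI 4. Dnaja1 and Dnajb6, which encode co-chaperones, were the 2 that were higher, Dnaja1 than in SI 4 and SI 5 and Dnajb6 than in SI 1 and SI 5. For Hspa1a and Dnajb1, SI 1 and SI 6 were each above 5 sub-clusters. For the same genes SI 0, SI 3 and SI 4 were each below 2 or 3, so their low listing was not particular to SI 2. Chemokine and cytokine genes were lower for 9 of 10 (90.0%), including Cxcl1, Cxcl2, Ccl1, Il2, Il6 and Ltb, and none was higher. The group shares Csf2, Cxcl10 and others with the groups around it, so the groups are not separate evidence.

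Type 2 effector and activation genes were split. Of 16 listed for the SI, 9 were lower in SI 2 (56.2%) and 5 higher (31.2%, close to the background of 32%). The secreted products Areg, Csf2, Il13, Il4, Il5, Il6 and Ccl1 were all on the lower side, with Bhlhe40 and Cd69. Il4, Il5, Il6 and Ccl1 were each lower in only 1 comparison. The split holds for this list only, since Calca, which encodes a hormone, is outside it and was higher. The higher side held the surface receptors Cxcr6, Icos, Tnfrsf9 and Tnfrsf18 and the enzyme Dgat1. Tnfrsf9, the costimulatory receptor 4-1BB, was higher than in SI 1 and SI 5. Cxcr6, Dgat1 and Tnfrsf9 were listed against all in SI 3 and not in SI 2. SI 3 was above 4 sub-clusters for Cxcr6 and for Dgat1, and SI 2 above 3, so these genes were not particular to SI 2. A prepared ILC2 identity list of 18 genes, which overlaps the markers checked above, had 7 listed for the SI, and 6 were higher (85.7%). Of these, Hs3st1, Ramp3, Icos, Ikzf3 and Rora were higher than in SI 1, and Ikzf3 and Rora in that comparison alone. Icos and Rora were among the markers checked above, so they are counted in both places. Hs3st1 and Ramp3 had the most higher listings. The sixth, Id2, a regulator that all ILCs need, was higher than in SI 6 and lower than in SI 0.

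Cyclic AMP response genes were divided. Of 14 listed for the SI, 5 were higher in SI 2 (35.7%), close to the background of 32%, and 7 lower (50.0%). Crem and Fosl2 had 3 and 2 higher listings, and Areg had 5 lower ones. Nr4a1 and Fosb had 3 lower listings each, and Atf3 had 2. Of the CGRP axis, only Calca and Ramp3 were listed for the SI, both higher in SI 2. For Ramp3, SI 0, SI 3 and SI 4 were each above 3 sub-clusters too, so this gene was not particular to SI 2. The receptor subunits Calcrl and Ramp1 were in no SI list, so the table carries no comparison of CGRP's own receptor. Among feedback regulators of MAP kinase signalling, Dusp5, Dusp10 and Spry2 were higher in SI 2, while Dusp1 and Dusp2 were lower, each of those 2 only than in SI 1. Antigen presentation genes were lower for all 4 listed. Cd74, the invariant chain, was lower than in SI 4, SI 5 and SI 6, and H2-Aa, H2-Ab1 and H2-Eb1 only than in SI 4.

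**Figure D4:**
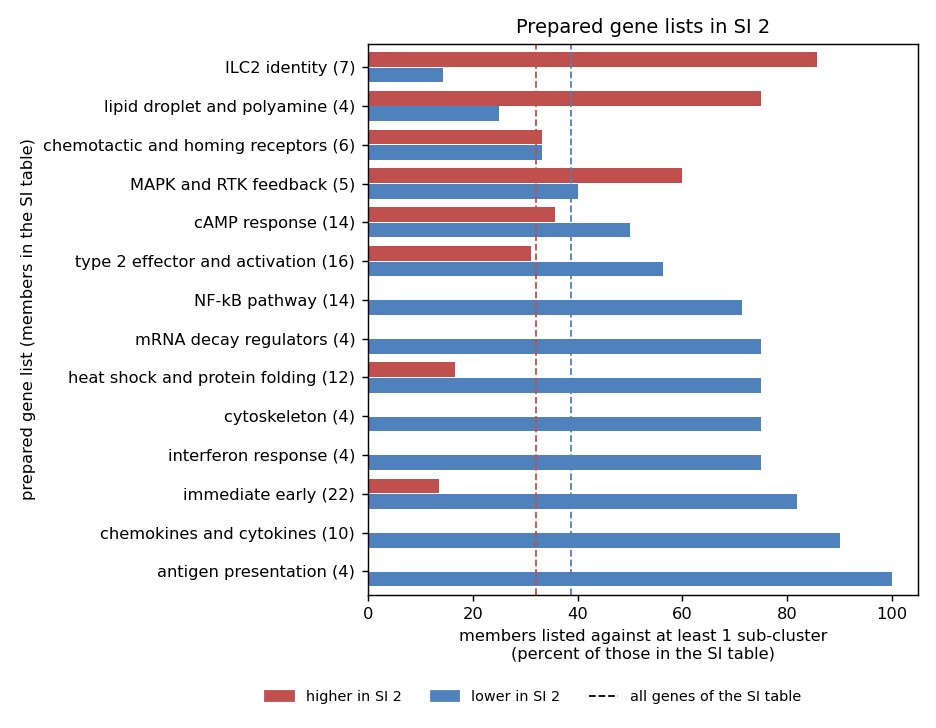
Share of the members of each prepared gene list that were listed higher (red) or lower (blue) in SI 2 against at least 1 other SI sub-cluster, as percent of the members in the SI table (horizontal axis), for lists with at least 4 such members (number in parentheses). Dashed lines give the same shares over all 338 SI genes, 32% higher and 38.8% lower; NF-kB pathway genes reach 71.4% lower with none higher, and ILC2 identity genes 85.7% higher.

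Genes listed in both directions were few. Of the 234 members, 103 were only higher, 126 only lower and 5 both. Besides Fos, Hes1, Id2 and Cdk11b, the fifth was Cwc25, a splicing factor gene that was higher in SI 2 than in SI 1 and lower than in SI 6. Many members rested on 1 comparison, 61 of the higher genes and 78 of the lower genes. Of the 61, 45 came from SI 1 and 9 from SI 4. The 9 included Cd81, Txk, Tmem176a and Tmem176b, named here after their values were seen, for which SI 4 was below every other SI sub-cluster. Of the 78, 33 came from SI 6, and these included genes of ribosome assembly such as Nolc1, Nop58 and Ppan, also chosen after their values were seen.

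Across the 49 SI lists, the genes listed most like Calca were Sub1, Ifngr1, Crem, Ramp3 and Fosl2, by the share of lists in common out of all lists that hold either gene (Jaccard index). Calca was in 12 lists and Sub1 in 8, all of which also held Calca (index 0.667). The index was 0.615 for Ifngr1, 0.571 for Crem, 0.471 for Ramp3 and 0.467 for Fosl2. The lists share cells, so this is a description of the table.

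The genes of SI 2 were next followed in the 29 sub-clusters of the other tissues. Of the 9 genes of the pooled list, 6 were also listed against all in a sub-cluster of another tissue, and Tgm2, Usmg5 and Trf were not. Calca was listed against all in LI 1 (place 4), lung 2 (place 3) and pancreas 0 (place 2). Lung 2 shared 3 of the 9 genes (33.3%), Calca, Crem and Sub1, which made up 10.3% of its own 29. LI 1 shared Calca alone, 1 of its 14. No other sub-cluster shared more than 1. Tgm2, Trf, Gzma and Cd200r1 were in no list of another tissue, and BM had no list with Calca, Tgm2 or Crem.

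In lung 2, Calca, Ramp3 and Crem were each listed higher than in all 5 other lung sub-clusters. In SI 2 the same genes were higher than in 4, 3 and 3 of 6 sub-clusters. In LI 1, Calca was higher than in 3 of 7 sub-clusters and Crem and Ramp3 than in 4. In pancreas 0, Calca was higher than in 4 of 6, and Hs3st1 headed the list against all.

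The lower genes of SI 2 were listed in other sub-clusters as well. In LI 1, Nfkbia and Gadd45b were each listed lower than in 6 of 7 sub-clusters, and Nfkbid and Zfp36 than in all 7. Cxcl10 was lower there than in 2. In lung 4, Nfkbia, Nfkbid and Zfp36 were lower than in all 5 other sub-clusters, and in BM 5 Nfkbia was lower than in 6 of 7. Lung 2, which shared 3 of the 9 pooled genes, listed part of these genes the other way. Areg was listed higher in lung 2 than in 3 sub-clusters and Rel than in 4, whereas in SI 2 both were lower than in some and higher than in none.

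Both sides were then counted together, with the 20 genes higher and the 24 genes lower in SI 2 than in at least 3 sub-clusters. In another tissue, a listing against at least 1 sub-cluster was enough, which is a lower bar than for SI 2. Each count is set beside the share of all genes of that tissue's table that the sub-cluster listed in the same direction, because a sub-cluster with more listed genes shares more of any set. Percents of the 20 and the 24 include genes absent from a tissue's table, which could not be listed there, and this lowers them. The LI table holds 466 genes, among them 16 of the 20 and all 24. LI 1 listed 14 of the 20 as higher (70.0%, against 33% of the LI table) and 21 of the 24 as lower (87.5%, against 39.1%). These were 9.09% of its 154 higher and 11.5% of its 182 lower genes. In other comparisons LI 1 also listed 3 of the 24 as higher, which were Il13, Rel and Isg15. Il13 was higher in LI 1 than in 3 sub-clusters and lower than in none, Rel was higher than in 1, and Isg15 was higher than in 1 and lower than in 1.

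LI 4 listed 14 of the 20 as higher (70.0%, against 26.4% of the LI table) and 22 of the 24 as lower (91.7%, against 34.5%), which were 11.4% of its 123 higher and 13.7% of its 161 lower genes. It also listed 7 of the 24 as higher in some comparison, among them Nfkbid, Zfp36 and Hes1, and 1 of the 20, Dgat1, as lower. Il13 was lower in LI 4 than in 3 sub-clusters, as in SI 2. LI 0 listed 15 of the 20 as higher (75.0%, against 46.1% of the LI table) and 8 of the 24 as lower (33.3%, against 27.3%), and 19 of the 24 were listed as higher there in some comparison. The 15 were 6.98% of its 215 higher genes and the 8 were 6.30% of its 127 lower genes.

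The lung table holds 191 genes, among them 11 of the 20 and 15 of the 24. Lung 2 listed all 11 as higher, where 58.6% of the lung table was so listed, and they were 9.82% of its 112 higher genes. Of the 15, it listed 5 as lower, where 28.3% of the lung table was so listed, and 11 as higher. Lung 4 listed none of the 11 as higher, where 12% of the lung table was so listed, and 9 of them as lower. All 15 of the lower genes that the table holds were lower in lung 4, where 68.6% of the lung table was so listed. The pancreas table holds 136 genes, among them 9 of the 20 and 14 of the 24. Pancreas 0 listed 6 of these 9 as higher, where 17.6% of the pancreas table was so listed. It listed 9 of these 14 as lower, where 55.9% of the table was so listed, and 1 of each set was listed the other way. These are counts over lists of unequal length and no test was made. LI and lung shared the batch of SI 2, and LI also its digestion time of 1.5 h, but the sort differed between SI and every other tissue. Tissue, sort and digestion time, and for the BM and pancreas also the batch, cannot be told apart.

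**Figure D5:**
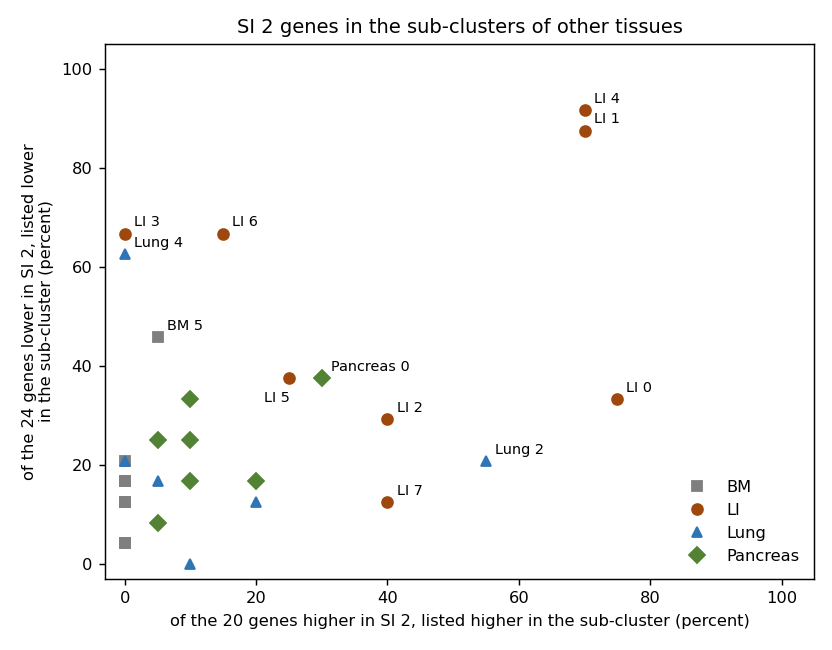
Each point is a sub-cluster of LI, lung, pancreas or BM, placed by the percent of the 20 genes higher in SI 2 (horizontal axis) and of the 24 genes lower in SI 2 (vertical axis), both in at least 3 comparisons, that were listed in the same direction against at least 1 sub-cluster of its own tissue. LI 1 and LI 4 lie at 70.0% on the horizontal axis and at 87.5% and 91.7% on the vertical axis, and lung 2 at 55% and 20.8% and lung 4 at 0% and 62.5%; the lung table holds only 11 of the 20 and 15 of the 24 genes, so its points cannot reach 100%.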

How the data were processed

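Single-cell 3′ libraries (10x chemistry) were aligned and counted by the authors with Cell Ranger on mm10, filtered with scater and clustered with Seurat (version 2, in R 3.6.1, per the submitters' processing notes). Clusters with markers of ILC3s, T, B, NK, endothelial or myeloid cells or ILC1s were removed by the authors, and the sources used here do not say how doublets were treated. Per the deposited tables, the files hold gene symbols that the authors listed for each sub-cluster comparison, with no count, score or other value. All 262 columns were read with Python 3.11.15 by a reader tested on simulated data, 23 of them with no gene. No test was run, since no values or replicates were given, and genes are described by counts of listings. Named genes were those of the pooled list, those in at least 5 higher or 4 lower lists, the label genes, those shared with other tissues and up to 6 members of each prepared list, with further genes of at least 3 lists. Members and lists were chosen with earlier results of these data known, and 12 cell type lists and 23 pathway lists were used. Symbols were placed with GENCODE M21 (mm10), 1-based, for 232 of 234 members. Of the 20 higher and 24 lower genes in at least 3 lists, 14 and 18 matched a promoter in the RefSeq table. Alternatives were other numbers of comparisons, leaving out each sub-cluster and current symbols.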

Additional observations from a re-analysis of the deposited data

How the results depend on the processing

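The list of 9 genes against all became 20 genes when support from 3 or more single comparisons was asked for and 108 with support from 1, and shrank to 0 with all 6. Without the gene that another SI sub-cluster also listed, 8 were left. The 108 higher genes were 47 with at least 2 lists and 20 with at least 3, and the 131 lower genes 53 and 24. Leaving out SI 1 brought the higher genes to 63. Leaving out any other sub-cluster gave 99 to 108 higher genes, and leaving out any gave 98 to 130 lower genes. Without SI 3, 1 gene (Tgm2) was higher than in every remaining sub-cluster, against 0 with SI 3. The 3 genes lower than in every sub-cluster were 5 without SI 3, with Areg and Nfkbid added, and 5 without SI 4, with Csf2 and Nfkbiz added. The 6 pooled genes shared with another tissue were 15 when the 20 genes in at least 3 lists were used, 89 with any 1 versus 1 list in both tissues, and 6 with current RefSeq symbols. Of the pathway list members, 28 were higher in at least 1 list, 9 in at least 3 and 3 against all. No paired analysis was possible because each tissue had 1 library and the results come from no test. The unknown threshold, depth and cell numbers limit every count: a gene that is not listed is not shown to be equal. The 1 versus 1 lists share cells and are not replicates.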
